A study of Mus musculus with 31 samples.

Results

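The olfactory receptor genes of mouse chromosome 7 were described in RNA of the distal colon of young BALB/c mice of both sexes. Members were all non-control probes whose gene name on the array was Olfr followed by a number and whose design coordinates (build mm9) lay on chromosome 7. A probe was tested when the scanner software marked its spot as well above background on at least 60% of the arrays of at least 1 of the 8 groups. This gave 242 probes for 235 genes among 56605 non-control probes, of which 89 probes, each for a different gene, were kept among 42790 kept probes.

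All mice, the controls included, received azoxymethane (AOM) by injection before the experiment and dextran sodium sulphate (DSS) in their water in its first days, a chemical model of colitis-associated colorectal cancer. Gavage began together with DSS, so that the mice of 2 days were taken while DSS was still given. The CRC mice were gavaged with water and the CRC + E171 mice with 5 mg/kg bw/day of E171, the food-grade form of titanium dioxide. Colons were taken after 2, 7, 14 and 21 days of exposure from 2 males and 2 females per group, which left 31 arrays, with 3 in CRC at 21 days and 4 in every other group. No group without AOM/DSS was analysed here.

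Olfactory receptors are G protein-coupled receptors that sensory neurons of the nose use to detect odorants, each neuron choosing a single receptor gene. Binding activates the G protein Gnal and the cyclase Adcy3, and cyclic AMP then opens the channel formed with Cnga2. Mouse receptors fall into class I, whose ligands are often water-soluble acids, and the larger class II. The class I genes lie together in a single cluster on chromosome 7, and receptors such as Olfr78, Olfr558 and Olfr544 are also known outside the nose, where they respond to short-chain fatty acids (Olfr78, Olfr558) or azelaic acid (Olfr544).

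Each member was measured by a single 60-base probe. The probes below are shown because the levels and differences turn on them. They are, in order, those of the brightest class I and class II members, of the member with the largest fall at 14 days, of a member past both thresholds at 2 and at 14 days, and of the member with the largest difference upwards at 14 days.
Olfr571: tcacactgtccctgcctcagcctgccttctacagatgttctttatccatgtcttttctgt
Olfr487: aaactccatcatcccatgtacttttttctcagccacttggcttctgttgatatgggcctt
Olfr557: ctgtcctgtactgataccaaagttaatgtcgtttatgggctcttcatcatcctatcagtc
Olfr617: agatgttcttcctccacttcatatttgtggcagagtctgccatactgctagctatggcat
Olfr689: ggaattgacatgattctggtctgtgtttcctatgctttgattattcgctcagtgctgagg

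In mm9 these 5 probes lie at chr7:110058002-110058061 (minus strand), chr7:115355814-115355873 (minus strand), chr7:109847345-109847404 (plus strand), chr7:110732854-110732913 (plus strand) and chr7:112463156-112463215 (plus strand). Members of this family resemble each other, and 12 pairs of kept probes matched over at least 40 bases with 15 mismatches or fewer. The closest pair differed at 2 of 60 bases, shown here in capitals, and its values stand with the 14-day results.
Olfr476: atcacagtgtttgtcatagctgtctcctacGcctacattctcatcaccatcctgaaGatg
Olfr477: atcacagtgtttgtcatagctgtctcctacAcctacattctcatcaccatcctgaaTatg

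A second pair differed at 5 of 60 bases and gave values of opposite direction.
Olfr611: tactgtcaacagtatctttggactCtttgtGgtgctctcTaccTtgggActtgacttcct
Olfr612: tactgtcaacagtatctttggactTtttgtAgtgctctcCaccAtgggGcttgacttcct

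Values are log2 of the processed spot signal relative to the array's 75th percentile, so that 0 is the level of a probe at that percentile and 1 unit is a doubling. The percentile ranged from 1717 to 6536 across arrays, and 67.4 to 78.9% of the spots of an array were well above background. The group mean of its log2 was 11.85 to 12.11 in CRC and lower, at 11.31 to 11.40, in CRC + E171. The part of this difference in the scaled values was not tested, and counts without scaling are given for each day. Colon epithelium genes (Cdx1, Cdx2, Krt20, Car1, Slc26a3, Muc2, Vil1 and Epcam) were measured in every group, and their mean level lay between 3.71 and 5.10 on 28 arrays but was -2.04 in CRC at 7 days male 1, 1.11 in CRC at 7 days male 2 and 1.78 in CRC + E171 at 14 days male 2. The array labelled CRC at 14 days male 2 had an Xist level of -1.60, within the range of the 16 arrays of females (-2.34 to -0.70) and above the other 14 arrays of males (-8.51 to -6.53), so the main results at 14 days are also given without it. In a bulk sample fewer cells of a type and less RNA per cell cannot be told apart. The arrays lay on 8 slides scanned on 3 days. Slides 2 and 6 held CRC at 2 days with CRC + E171 at 14 days, slides 4 and 8 held CRC at 14 days with CRC + E171 at 2 days, and the arrays of 7 and 21 days were crossed in the same way on slides 1, 3, 5 and 7.

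Most chromosome 7 receptor probes were at or near background in the colon. Of the 242 probes 36.8% were kept, while the share was 75.6% over all probes and 35.8% over the 908 olfactory receptor probes of other chromosomes. Of the 153 probes left out, 82 were well above background on no array and 71 on 1 to 8 arrays. At the other end 31 probes were well above background on all 31 arrays, 15 of them class I and 16 class II. Nearest to the limit, which is set by group, Olfr691 was kept with 4 arrays in all, while Olfr17, Olfr615 and Olfr301 were left out with 8 arrays each. By class, of the 122 class I probes 45 were kept (36.9%), and of the 118 class II probes 44 (37.3%), while 2 probes had no class in the reference names and neither was kept.

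**Figure D1:**
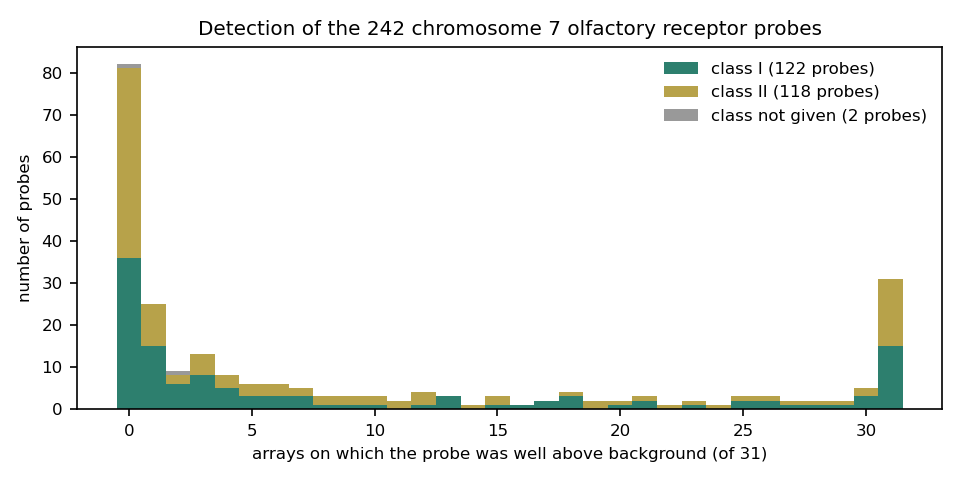
Number of probes (vertical axis) by the number of arrays, of 31, on which the probe was well above background (horizontal axis), stacked by receptor class. The 82 probes at 0 arrays and the 31 at 31 arrays form the ends of the distribution.

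By position, the probes formed 4 clusters when split at gaps over 10000000 bases. Of the 8 probes at chr7:6393242-6523390, 6 were kept, and of the 17 at chr7:92005604-93836967, 2 were kept. The large cluster at chr7:106883655-116037498 held 197 probes, of which 69 were kept, and it contained all 122 class I probes, between 109625402 and 115688523. The last cluster, at chr7:147348160-147891090, held 20 probes, of which 12 were kept. Kept probes had a median GC content of 45.0% and probes left out one of 41.67%, and the probes never well above background were lower still. The part of base composition in detection was not tested.

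The kept members were dim. Their mean level over the 31 arrays ran from -7.06 to 0.69 with a median of -5.38, against a median of -2.19 for all kept probes, and 71.9% of members had a mean under -4 against 29.8% of all kept probes. Medians of the kept class I and class II members were -5.36 and -5.45. The dimmest signal that was well above background lay between -7.11 and -5.62 on the scaled log2 axis, depending on the array, so that many members were close to the lower end of what an array could measure. Only 3 members had a mean above 0.

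Olfr571, a class I receptor, was the brightest member, with a mean of 0.69 and a range of -0.41 to 1.96 over the 31 arrays. Olfr544, the azelaic acid receptor, followed at 0.10 (-0.84 to 1.38), and Olfr487, a class II receptor, at 0.01 (-4.95 to 1.49). The SD over the arrays was 0.56, 0.49 and 1.17, so the last 2 means differed by less than their spread, and levels of different probes also depend on the probe, so their order is only that of the signals. Next came Olfr78 at -1.67 (-4.26 to -0.10), Olfr1347 at -2.19, Olfr570 at -2.34, Olfr6 at -2.54 and Olfr1349 at -2.82. Olfr558, the other short-chain fatty acid receptor of the region, had a mean of -3.71. All of the first 8 were well above background on all 31 arrays, and no member was saturated on any array.

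**Figure D2:**
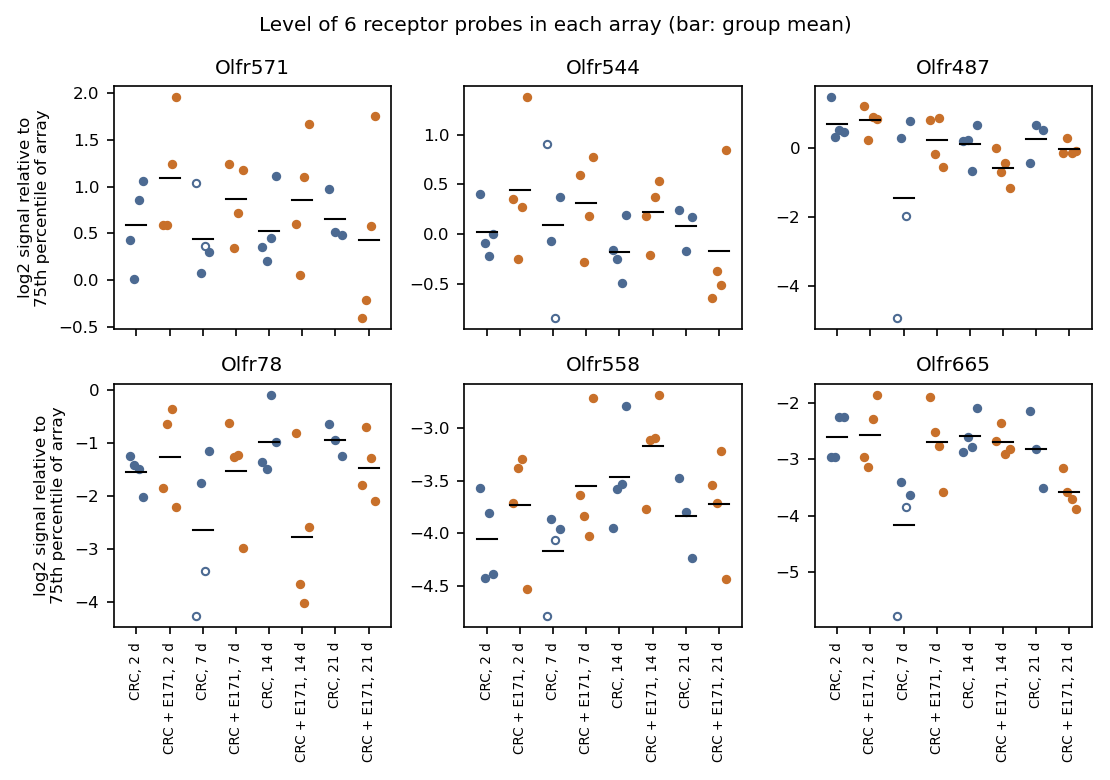
Level (log2 signal relative to the array's 75th percentile) of 6 receptor probes in each array by group, with the group mean as a bar and open symbols for the CRC males at 7 days. Olfr571 and Olfr544 stayed within about 2.4 units over all arrays. Every panel but that of Olfr571 had its lowest value on an open symbol, and in Olfr544 and Olfr558 other arrays lay close to it.

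CRC + E171 was compared with CRC at each day in a single limma model over the 8 groups. A member counted as up- or down-regulated when its linear fold change was at least 1.5 and its unadjusted p was under 0.05, the rule called "both thresholds" here. The study's methods write the cut-off as a log2 fold change of 1.5, and with that reading 3, 1, 11 and 2 members passed at 2, 7, 14 and 21 days, against 0.341%, 2.73%, 1.5% and 0.523% of all probes. After Benjamini-Hochberg adjustment over all 42790 probes, 0 members passed at any day in limma. In the order of the days the smallest adjusted p in limma was 1.0, 0.204, 0.403 and 0.779, and the members with an unadjusted p under 0.05 numbered 6, 4, 24 and 4. For single members an exact two-sided permutation test over the arrays was added, whose smallest possible p was 0.0286. These p-values measure the spread between arrays of the same group, which limma pools over the 8 groups. No slide held both groups of a day, and the CRC and CRC + E171 arrays lay in different columns of their slides. The effect of E171 at a single day therefore cannot be told apart from a difference between slides or columns.

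**Figure D3:**
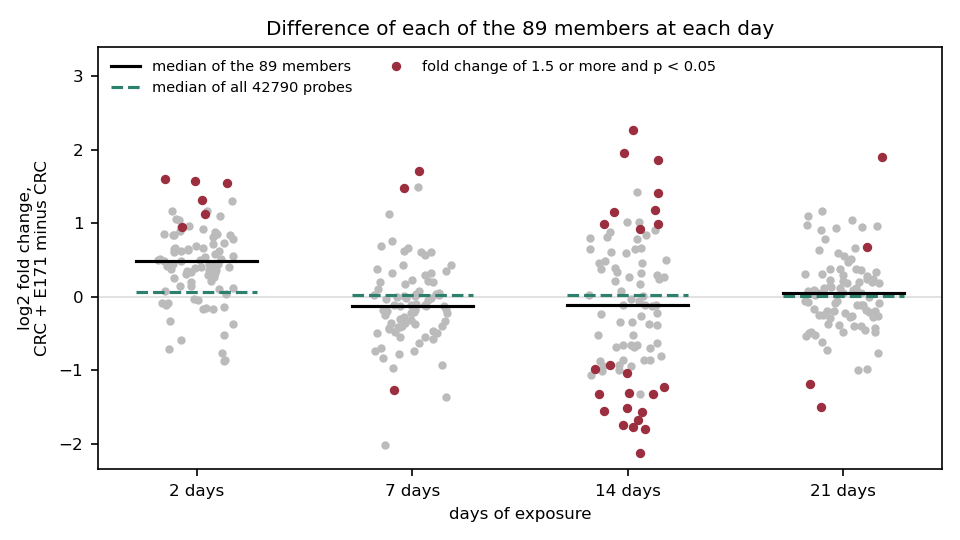
Log2 fold change of CRC + E171 over CRC (vertical axis) for each of the 89 members at each day of exposure, with members past both thresholds in red, the members' median as a black line and the median of all 42790 probes as a dashed line. The black line lies above the dashed one at 2 days, and most red points are at 14 days.

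After 2 days of exposure 6 members were up-regulated and none down-regulated, which is 6.74% of members against 2.74% of all probes (2.49% up and 0.248% down) and 5.70% of the probes with a mean level under -4. The groups did not overlap for 2 members, both lower with E171, against 4.84% of all probes. The median log2 fold change of the members was 0.48, against 0.06 over all probes, and 72 of 89 members (80.9%) were higher with E171 against 59.3% of all probes. The shift was also seen in the probes with a mean under -4 (70.8% higher, median 0.25), in receptor probes on chromosome 9 (93.5%, median 0.58) and in those elsewhere (81.0%, median 0.53). Receptor probes on chromosome 9 (10.9%) and elsewhere (12.2%) passed both thresholds at shares above that of chromosome 7. The up-regulated members were Olfr617, Olfr686, Olfr584 and Olfr578 of class I and Olfr2 and Olfr483 of class II. Olfr2 is the I7 receptor, known for its response to octanal.

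The level of Olfr617 at 2 days was -8.07, -7.04, -5.48 and -5.45 in CRC and -5.66, -5.35, -2.72 and -5.89 in CRC + E171, in the order male 1, female 1, male 2, female 2. The first 2 CRC values were low and the others lay within the CRC + E171 range, where male 2 stood apart. Its log2 fold change was 1.60 ± 0.63 (SE; limma p = 0.0166, adjusted p = 1.0, exact permutation p = 0.229), and within the shared scan day, where 2 arrays of each group met, the difference was -0.04. Without CRC + E171 male 2 the log2 fold change was 0.88 and no longer passed, nor did it with the scan day as a block (1.31).

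Olfr686 had levels of -7.93, -7.38, -4.63 and -4.71 in CRC and of -4.65, -4.62, -4.57 and -4.48 in CRC + E171 at 2 days. Again the CRC arrays of replicate 1, on slide 2, were low and those of replicate 2, on slide 6, were near the CRC + E171 arrays. The log2 fold change was 1.58 ± 0.66 (SE; limma p = 0.0246, adjusted p = 1.0, exact permutation p = 0.0571) and the difference within the scan day was 0.03. Olfr686 was well above background on just 2 arrays of CRC, and the slide 2 values lay below the lowest such signal of their arrays, so the size of the change rests on signals under background. Olfr584 showed the same split, with -8.34 and -8.67 on slide 2, -5.49 and -5.44 on slide 6, and -5.08, -5.06, -6.03 and -5.61 in CRC + E171, for a log2 fold change of 1.54 ± 0.74 (SE; limma p = 0.0466, adjusted p = 1.0, exact permutation p = 0.229). Here too 2 CRC and 2 CRC + E171 arrays were well above background, and the slide 2 values were not.

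Within the scan day shared at 2 days the median difference of the 89 members was -0.19 and 34 of 89 were higher, so the direction of the pooled comparison did not hold there. Of the 6 up-regulated members 4 kept their direction, with Olfr578 at 1.64 the largest of the 6. Olfr686 and Olfr584 did not pass without CRC male 1 (0.99 and 1.09) or without CRC female 1 (1.18 and 0.98). When the 8 arrays of that day were left out in turn, Olfr584 did not pass for 5 of them, and Olfr686 and Olfr617 for 2 each. The count fell to 2 without CRC male 1, to 2 without CRC female 1 and to 3 without CRC + E171 male 1, while leaving out CRC male 2 gave 15 and CRC female 2 gave 19. With the replicate block, a term for sex and replicate number, the count was 20. The share of all probes in these fits is not given here, so these counts are a description. Without any scaling between arrays the median of the members turned to -0.23, with 0 up- and 8 down-regulated (8.99% of members against 27.5% of all probes), while the median of all probes moved to -0.65. With quantile normalization 3 members were up- and 2 down-regulated at 2 days (5.62% against 2.11% of all probes). With the authors' values 2 were up- and 1 down-regulated (3.49% of the chromosome 7 probes held against 1.86% of all). Those values hold 86 of the 242 probes, 83 of the 89 members among them, and Olfr617, Olfr584 and Olfr2, 3 of the 6 up-regulated ones, are not among them. With normexp background correction (offset 50) Olfr617, Olfr686 and Olfr584 still passed, at 0.91, 0.73 and 0.69.

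After 7 days of exposure 3 members passed both thresholds. Olfr487 and Olfr665 were up-regulated and Olfr642 was down-regulated, 3.37% of members against 12.3% of all probes (8.02% up and 4.30% down) and 11.1% of the probes with a mean under -4. The median log2 fold change was -0.13 against 0.02 over all probes, and 33 of 89 members (37.1%) were higher with E171 against 52.3% of all probes.

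Olfr665 was measured at -5.79, -3.39, -3.85 and -3.63 in CRC and at -1.89, -2.52, -2.76 and -3.57 in CRC + E171. Only female 2 with E171 lay within the CRC range. The log2 fold change was 1.48 ± 0.41 (SE; limma p = 0.00145, adjusted p = 0.204, exact permutation p = 0.0571). Without CRC female 1 the adjusted p of Olfr665 in limma was 0.0370, which was the only adjusted p under 0.05 of a member among the alternatives at a single day. Without both CRC males, whose colon epithelium genes were low, the log2 fold change was 0.82 and did not pass.

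Olfr487 was at -4.95 in male 1 and -1.98 in male 2 of CRC, against 0.31 and 0.80 in the females, and at 0.83, -0.16, 0.88 and -0.53 in CRC + E171. The 2 low arrays were those with low colon epithelium genes. Over all 4 arrays a group the log2 fold change was 1.71 ± 0.72 (SE; limma p = 0.0252, adjusted p = 0.263, exact permutation p = 0.286), it was 0.54 without CRC male 1 and did not pass, and it turned to -0.30 when both CRC males were left out. All 8 colon epithelium genes were themselves up-regulated at 7 days, with a median log2 fold change of 2.41. Their part in the receptor values was not tested.

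Olfr642 lay at -5.93, -5.92, -4.77 and -5.14 in CRC and at -6.35, -6.19, -7.97 and -6.32 in CRC + E171, with no overlap. The log2 fold change was -1.27 ± 0.52 (SE; limma p = 0.0229, adjusted p = 0.258, exact permutation p = 0.0286), and the difference within the shared scan day was -0.35. Of its arrays 3 of CRC and 1 of CRC + E171 were well above background, so the size of this difference rests on signals under background. Without CRC + E171 male 2 it fell by 0.85 and did not pass. It did not pass either with normexp (-0.31) or with the scan day as a block (-1.14). Olfr1349 had a limma p of 0.0246 at a log2 fold change of 0.57 ± 0.24 (SE), short of the fold threshold. The count of 3 members rose to 5 without CRC male 2 or CRC female 2, to 6 without CRC female 1 or CRC + E171 female 2, and to 7 without CRC + E171 female 1. These counts stand without the share of all probes in the same fits, so they are a description. Groups did not overlap for 2 members at 7 days, against 6.06% of all probes. Without scaling between arrays 13 members were down-regulated and 0 up-regulated at 7 days, 14.6% of members against 28.1% of all probes, with the median of all probes at -0.57.

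After 14 days of exposure 24 members passed both thresholds, 9 up-regulated and 15 down-regulated. This is 27.0% of members against 6.68% of all probes (3.69% up and 2.99% down) and 13.9% of the probes with a mean under -4. The share was 26.1% for receptor probes on chromosome 9 and 22.9% for those elsewhere in the genome, and it was 11.2% for the kept probes of other genes that lie between the class I receptors. Class I had 5 up- and 7 down-regulated members and class II 4 and 8. The groups did not overlap for 29 members (8 higher and 21 lower with E171), against 6.23% of all probes. The median log2 fold change was -0.11 against 0.02, and 40 of 89 members (44.9%) were higher with E171 against 52.2% of all probes.

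The down-regulated members were Olfr557, Olfr617, Olfr78, Olfr686, Olfr33, Olfr65 and Olfr620 of class I and Olfr478, Olfr2, Olfr1344, Olfr45, Olfr706, Olfr502, Olfr53 and Olfr537-ps1 of class II, the last being a pseudogene. Their log2 fold changes ran from -2.13 to -0.93, and 12 of the 15 had no overlap between groups. For 8 of them no CRC + E171 array at 14 days was well above background. The up-regulated members were Olfr689, Olfr691, Olfr638, Olfr608 and Olfr570 of class I and Olfr477, Olfr6, Olfr538 and Olfr484 of class II, from 0.92 to 2.27. In 4 of these 9 no CRC array at 14 days was well above background. Olfr638, Olfr689 and Olfr691 met the limit for testing in CRC + E171 at 14 days alone, the group where they were high, so their rise is a description only and the count of 9 holds them. With the limit set over all 31 arrays 59 members were tested and 13 passed at 14 days, 5 up- and 8 down-regulated, or 22.0% of them against 5.87% of all probes so tested.

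Olfr557 gave the smallest p of any member at any day. Its level was -5.38, -4.78, -6.03 and -5.15 in CRC and -7.73, -8.25, -7.19 and -6.69 in CRC + E171 at 14 days, and all 4 CRC arrays but no CRC + E171 array were well above background. The fitted log2 fold change was -2.13 ± 0.49 (SE; limma p = 0.000207, adjusted p = 0.403, exact permutation p = 0.0286). Against the dimmest signal that the arrays could call, the level with E171 was at least 2.01-fold lower. Here and below such a bound sets the mean of the brighter group against the mean over the dimmer arrays of the lowest signal well above background, or of the probe's own value where that was higher. Such a bound is not firm where arrays of the brighter group were themselves not well above background. The difference within the scan day was -1.86, and without the array labelled CRC male 2 the log2 fold change was -2.36 and passed.

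Olfr617, up-regulated at 2 days, was down-regulated at 14 days. It lay at -5.57, -5.77, -5.85 and -5.95 in CRC and at -7.25, -8.23, -7.22 and -7.67 in CRC + E171, with no overlap (log2 fold change -1.81 ± 0.63, SE; limma p = 0.00778, adjusted p = 0.505, exact permutation p = 0.0286). The bound was 1.48-fold lower but is not firm, since only 2 CRC arrays and no CRC + E171 array were well above background. With normexp the log2 fold change was -0.24 and did not pass, and without the array labelled CRC male 2 it was -1.83 and passed.

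Olfr78, the short-chain fatty acid receptor, was far above background in both groups. Its level was -1.37, -1.50, -0.10 and -0.99 in CRC and -0.81, -3.66, -4.02 and -2.59 in CRC + E171 at 14 days. Male 1 with E171 lay within the CRC range and the other 3 were below it. The log2 fold change was -1.78 ± 0.64 (SE; limma p = 0.0104, adjusted p = 0.505, exact permutation p = 0.114). Without CRC + E171 male 2, whose colon epithelium genes were low (mean level 1.78), Olfr78 fell by 1.36 and did not pass. Without the array labelled CRC male 2 it fell by 1.48 and passed. Olfr558 did not pass at any day, with log2 fold changes of 0.32 ± 0.34, 0.62 ± 0.34, 0.30 ± 0.34 and 0.11 ± 0.37 (SE) in the order of the days. Olfr544 did not pass either, at 0.42 ± 0.35, 0.22 ± 0.35, 0.40 ± 0.35 and -0.25 ± 0.38 (SE).

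Olfr689, whose probe is shown above, had the largest difference upwards. Its level was -6.88, -7.40, -8.87 and -7.95 in CRC and -6.93, -6.38, -3.74 and -5.0 in CRC + E171 at 14 days, where the replicate 2 arrays on slide 6 were the highest. The log2 fold change was 2.27 ± 0.75 (SE). Its bound of 1.63-fold higher is not firm, as CRC + E171 male 1 was not well above background. Olfr477 lay at -6.75, -5.96, -8.79 and -6.23 in CRC and at -5.74, -4.85, -4.84 and -4.50 in CRC + E171, with no overlap. Its log2 fold change was 1.95 ± 0.64 (SE; limma p = 0.00529, adjusted p = 0.499, exact permutation p = 0.0286), or at least 2.35-fold higher. Olfr691, at -7.39, -7.48, -8.80 and -6.84 in CRC and -6.56, -6.37, -5.43 and -4.73 in CRC + E171, had a log2 fold change of 1.86 ± 0.62 (SE). Its bound of 1.36-fold higher is not firm either, as CRC + E171 male 1 was not well above background. No test is given for Olfr689 and Olfr691, for the reason above. For all 3 the lowest CRC value was on the array labelled male 2. Without it their log2 fold changes were 1.90, 1.33 and 1.47 and Olfr477 still passed, while the count of members past both thresholds was 15 in place of 24, 6 up and 9 down (16.9% against 6.05% of all probes).

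The split by direction at 14 days changed with the processing. With normexp, which changes the background correction and adds an offset of 50 at once, 18 members were up-regulated and 1 down-regulated (21.3% against 7.53% of all probes). The log2 fold change of Olfr557 was then -0.37 and did not pass. Without scaling between arrays 2 were up- and 33 down-regulated (39.3% against 15.1% of all probes), with the median of all probes at -0.53. With the scan day as a block 7 were up- and 10 down-regulated, for which the share of all probes is not given here. Quantile normalization gave 11 up- and 20 down-regulated (34.8% against 7.48% of all probes). The authors' values, which lack Olfr617, Olfr2, Olfr689 and Olfr691, gave 8 and 21 (33.7% of the 86 chromosome 7 probes they hold against 9.72% of all). Within the scan day shared at 14 days the median over all 89 members was 0.32 against -0.11 in the pooled comparison.

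Members often had opposite signs at 2 and at 14 days. This held for 60 of the 89 (67.4%), against 47.0% of all probes, and these 2 comparisons share no arrays. Without the array labelled CRC at 14 days male 2 it held for 62 members (69.7% against 45.1%). Of the 15 members down-regulated at 14 days 14 were higher with E171 at 2 days, as were 72 of all 89 members (80.9%). The median log2 fold change of the 15 at 2 days was 0.85, against 0.48 for all members. Of the 15, 3 were also up-regulated at 2 days, namely Olfr617, Olfr686 and Olfr2. Of the 9 up-regulated at 14 days 6 were higher and 3 lower at 2 days. Because the CRC arrays of one day lay on the slides of the CRC + E171 arrays of the other, opposite effects at 2 and 14 days cannot be told apart from a difference between slides 4 and 8 and slides 2 and 6.

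**Figure D4:**
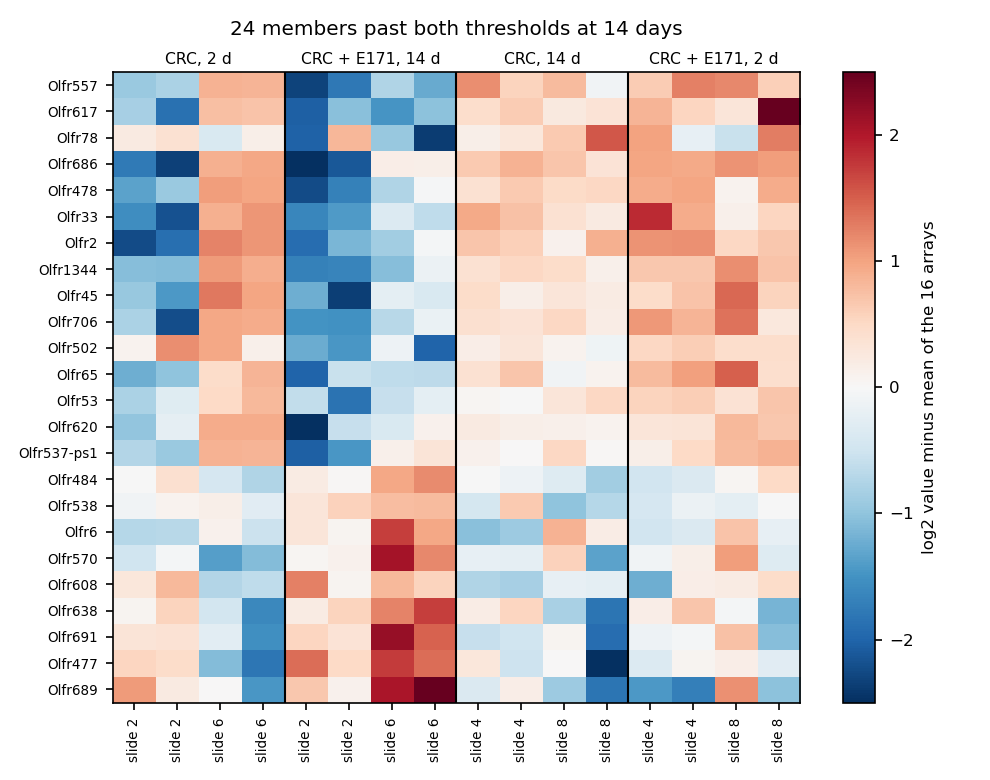
Level of the 24 members past both thresholds at 14 days (rows) on the 16 arrays of slides 2, 6, 4 and 8 (columns, by group and slide), as log2 value minus the probe's mean over these arrays, from blue (low) to red (high). The 15 rows of down-regulated members have a mean below 0 over the CRC + E171 arrays at 14 days, and 13 of them, all but Olfr78 and Olfr502, are also below 0 on both slide 2 arrays of CRC at 2 days, whereas 8 of the 9 rows of up-regulated members, all but Olfr608, are highest on a slide 6 array of CRC + E171 at 14 days.

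Slide by slide, the 15 down-regulated members had a median difference of CRC + E171 at 14 days from CRC at 2 days of -0.59 on slide 2 and -1.47 on slide 6. On slides 4 and 8, where CRC + E171 at 2 days stood beside CRC at 14 days, it was 0.28 and 0.55. The 9 up-regulated members had 0.13 and 2.52 on slides 2 and 6, and 0.06 and 0.74 on slides 4 and 8. Both sets were chosen by their 14-day values on these slides, and 3 of the 9 were tested only through CRC + E171 at 14 days, so these medians are a description.

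The effect of E171 averaged over 2 and 14 days in a limma model that also fits each slide is free of a constant difference between slides, but not of one between positions within a slide. On every slide CRC lay in column 2 and CRC + E171 in column 4, so E171 and column cannot be told apart in this model. In it 10 members passed both thresholds (11.2% against 3.03% of all probes), 8 up and 2 down, 13 had an unadjusted p under 0.05, and the smallest adjusted p was 0.680 in limma. Of the 8 up-regulated members Olfr638 and Olfr691 were tested only through CRC + E171 at 14 days, which enters this mean, so 6 up and 2 down remain as tests. Without the array labelled CRC at 14 days male 2 the count of 10 was 5 (5.62% against 2.69% of all probes), 3 up and 2 down. Among the members that passed, Olfr477 (1.17 ± 0.47, SE) and Olfr570 (1.05 ± 0.37) had the largest rises, and Olfr557 was down by 0.60 ± 0.21. The mean effect over 7 and 21 days gave 3 members, 3.37% against 4.59% of all probes. These were Olfr1349 at 0.62 ± 0.18, Olfr557 at -0.63 ± 0.22 and Olfr642 at -0.69 ± 0.32 (SE). No member passed after adjustment there, with 3 members under an unadjusted p of 0.05 and a smallest adjusted p of 0.559 in limma. The first of these means averages opposite values for Olfr557, whose log2 fold change was 0.92 ± 0.49 (SE) at 2 days, not past the thresholds, and -2.13 at 14 days.

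The probes of near-identical sequence shown above did not always move together. Olfr476 and Olfr477, with 2 mismatches, had log2 fold changes of 0.84 and 1.95 at 14 days and a correlation of 0.36 over the 31 arrays. Olfr611 and Olfr612, with 5 mismatches, had 1.02 and -0.93 and a correlation of -0.30. Olfr33 and Olfr559, with 7 mismatches over 46 bases, had -1.58 and -0.95 and a correlation of 0.89. The 31 arrays share slides and depth, and how much RNA of one gene bound the probe of the other was not tested, so single members of such pairs are uncertain.

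After 21 days of exposure 4 members passed both thresholds, Olfr631 and Olfr1349 up-regulated and Olfr608 and Olfr46 down-regulated. This is 4.49% of members against 3.70% of all probes (1.15% up and 2.55% down) and 5.73% of those with a mean under -4. The median log2 fold change was 0.05 against 0.02, and 47 of 89 members were higher against 51.5% of all probes. Groups did not overlap for 6 members, against 7.23% of all probes. The split by direction changed with the processing, with 0 up and 8 down without scaling (8.99% against 13.6% of all probes), 0 and 8 with array weights (8.99% against 8.48%), 6 and 2 with quantile normalization (8.99% against 3.62%), 4 and 0 with normexp (4.49% against 2.81%) and, over the 242 probes without the filter, 14 and 2 (6.61% against 4.22%). With the replicate block 7 members passed at 21 days, 5 up- and 2 down-regulated (7.87% against 5.47% of all probes), and the 3 pairs of arrays with the same sex and number deviated together at that day (correlations of 0.24, 0.411 and 0.222). Within the scan day shared at 21 days the median was -0.30 and 16 of 89 were higher. The count was 2 without CRC male 1 or CRC + E171 male 2, 8 without CRC + E171 male 1, and 9 without CRC female 2 or CRC + E171 female 1. For these left-out arrays the share of all probes is not given here, so the counts are a description.

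Olfr1349, of class II and well above background on every array, lay at -3.18, -3.67 and -3.08 in CRC (male 1, female 1, female 2) and at -2.79, -2.56, -2.86 and -2.32 in CRC + E171 at 21 days, with no overlap. Its log2 fold change was 0.67 ± 0.26 (SE; limma p = 0.0148, adjusted p = 0.779, exact permutation p = 0.0286), but 0.14 without scaling between arrays. Olfr46 lay at -5.25, -5.49 and -5.74 in CRC and at -6.24, -6.42, -6.84 and -7.22 in CRC + E171 (log2 fold change -1.18 ± 0.41, SE; limma p = 0.00741, adjusted p = 0.779, exact permutation p = 0.0286), or at least 1.38-fold lower. Olfr608 was at -4.54, -5.26 and -5.69 in CRC and at -6.67, -5.43, -8.04 and -6.52 in CRC + E171, with an overlap at female 1. Its log2 fold change was -1.50 ± 0.55 (SE; limma p = 0.0115, adjusted p = 0.779, exact permutation p = 0.0857), whereas at 14 days it was up-regulated by 1.19. Of the CRC + E171 arrays 1 of 4 was well above background for Olfr608. Olfr631, at -6.88, -5.92 and -8.35 in CRC and -6.45, -6.25, -3.29 and -4.61 in CRC + E171, had a log2 fold change of 1.90 ± 0.84 (SE; limma p = 0.0320, adjusted p = 0.779, exact permutation p = 0.171). For Olfr631 1 of 3 CRC and 2 of 4 CRC + E171 arrays were well above background, so the size of its change rests on signals under background. Within the scan day the difference of Olfr631 was 0.05, and a second probe for it was well above background on no array. Without CRC + E171 male 2 neither Olfr631 (1.28) nor Olfr608 (-1.04) passed, and without CRC female 1 Olfr1349 (0.50) did not. With normexp Olfr46 (-0.13) and Olfr608 (-0.28) did not pass, and with the scan day as a block Olfr631 (1.35) did not.

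Over the 4 days 33 members passed both thresholds at some day and 4 at 2 days of the 4, namely Olfr608, Olfr617, Olfr686 and Olfr2. The share of all probes that passed at some day was not counted, so these 2 numbers are a description. The effect of E171 differed between days for 17 members at an unadjusted p under 0.05 in limma's F test, 19.1% against 7.04% of all probes, with a smallest adjusted p of 0.697. Of the 17, 4 were tested only through a single group (Olfr638, Olfr689 and Olfr691 through CRC + E171 at 14 days and Olfr2 through CRC at 21 days), so the share is a description. Without the array labelled CRC at 14 days male 2 the count was 13 (14.6% against 5.95%). Across days within CRC arrays 4 members had an F test p under 0.05 (4.49% against 9.56% of all probes), and none passed adjustment, as 0.00234% of all probes did (smallest adjusted p in limma 0.494). The count was also 4 without the array labelled CRC at 14 days male 2 (4.49% against 9.01%). Within CRC + E171 arrays 27 members did (30.3% against 16.1%), 3 of them tested only through a single one of these groups, and again none passed adjustment (0.00701% of all probes did), the smallest adjusted p in limma being 0.0915. Without CRC + E171 at 21 days male 2, 1 member had an adjusted p of 0.0414 in limma. The difference between these 2 shares was not tested.

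In CRC, Olfr665 had means of -2.60 ± 0.41, -4.16 ± 1.10, -2.58 ± 0.34 and -2.82 ± 0.68 (SD, n = 4, 4, 4 and 3) at 2, 7, 14 and 21 days (limma F test, adjusted p = 0.494), lowest at 7 days. Olfr1349 had -2.37 ± 0.47, -3.28 ± 0.48, -2.97 ± 0.23 and -3.31 ± 0.31 (limma F test, adjusted p = 0.494), highest at 2 days. Olfr576 had -2.95 ± 0.59, -3.78 ± 0.87, -4.40 ± 0.46 and -3.74 ± 0.16 (limma F test, adjusted p = 0.507). In CRC + E171, Olfr557 had -5.02 ± 0.36, -6.50 ± 0.91, -7.46 ± 0.67 and -6.43 ± 0.86 (SD, n = 4 each; limma F test, adjusted p = 0.0915). Olfr617, at -4.90 ± 1.47, -6.65 ± 0.44, -7.59 ± 0.47 and -6.25 ± 1.22 (limma F test, adjusted p = 0.127), was also lowest at 14 days. Olfr608, at -5.38 ± 0.77, -4.95 ± 0.36, -4.61 ± 0.50 and -6.66 ± 1.07 (limma F test, adjusted p = 0.129), was lowest at 21 days. Days lay on different slides, so days and slides cannot be told apart in these values.

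Females and males were compared over all groups in limma. Olfr477 was higher in females by 0.82 ± 0.29 (SE; adjusted p = 0.409) and Olfr657 by 0.62 ± 0.23 (SE; adjusted p = 0.450), 2.25% of members against 2.88% of all probes, and 6 members had an unadjusted p under 0.05. None passed adjustment, against 0.0538% of all probes. The same count of 2 members was found without the array labelled CRC at 14 days male 2. A higher level in females, of any size, was seen for 66 of 89 members (74.2%) against 55.6% of all probes. On every slide the arrays labelled male lay in row 1 and those labelled female in row 2, so sex and row cannot be told apart.

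The genes that carry the receptor signal in the nose were examined as lists, a gene counting as passing where any of its tested probes passed both thresholds. By that rule 4.09%, 15.8%, 9.54% and 5.41% of all gene names on the array passed at 2, 7, 14 and 21 days, and nothing is read from the lists beyond their counts. Among the reported genes of olfactory transduction, Gnas passed upwards at 2 days, Pde1c upwards and Cngb1 downwards at 7 days, Cnga2 downwards at 14 days and Gnb1 upwards at 21 days, none after adjustment. Gnal and Adcy3, the nasal G protein and cyclase, did not pass at any day. Of 13 tested genes for receptor trafficking and choice, Rtp1, which helps receptors to the cell surface, passed upwards at 2 days, Kirrel3 upwards and Atf5 downwards at 7 days and Ebf1 downwards at 21 days.

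Markers of olfactory sensory neurons were mixed. Of 10 such genes on the array Stoml3 and Ncam2 were not kept, with at most 5 and 7 arrays well above background, whereas Omp, the defining marker, had a level of 1.61 and was well above background on all 31 arrays. Of the 8 tested, S100a5 passed upwards at 2 days, Cartpt downwards at 7 days and Cnga2 downwards at 14 days. Of 4 tested testis and sperm genes, another site of receptor transcripts, Tnp1 passed downwards at 14 days, and Odf1 and Smcp were not kept. The beta-globin genes lie among the class I receptors. Of 8 tested erythroid genes Slc4a1 passed upwards at 14 days and Ahsp upwards at 21 days, and no globin gene passed. Of 8 smooth muscle genes Myh11 passed upwards at 2 days and Cnn1 and Synpo2 downwards at 14 days. None of the genes of these lists passed after adjustment, and their part in the receptor values was not tested.

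Enteroendocrine cells, the hormone cells of the gut reported to hold Olfr78 and Olfr558, were represented by 12 genes. Chga, Chgb, Neurod1 and Tph1 passed upwards at 7 days. The CRC males of that day, whose colon epithelium genes were low, had Neurod1 at -7.91 and -4.21 against -2.80 and -2.96 in the CRC females, and the part of these arrays in the 4 calls was not tested. At 14 days Insl5 and Pyy, hormones of the colonic L cells, passed downwards and 1 probe of Gcg upwards. The log2 fold change at 14 days was -4.48 for Insl5 (limma, adjusted p = 0.499) and -2.22 for Pyy (limma, adjusted p = 0.505). CRC + E171 at 14 days male 2 was among the arrays with low colon epithelium genes, and its part in these values was not tested. Of the 5 tested genes for short-chain fatty acid receptors and transporters Ffar2 passed upwards at 7 days. Insl5 and Olfr78 were low on the same arrays. The level of Insl5 was -3.99, -2.67 and -1.62 on the CRC + E171 arrays of 14 days female 1, male 2 and female 2, where Olfr78 was at -3.66, -4.02 and -2.59. Both were also low in CRC + E171 at 7 days female 2 (-1.45 and -2.98) and in CRC at 7 days male 1 (-0.92 and -4.26). In CRC at 7 days male 2 Insl5 was at 2.31 and Olfr78 at -3.42, and on the other 25 arrays Insl5 lay between 1.62 and 5.28 and Olfr78 between -2.21 and -0.10. The arrays fell into separate sets, so no pooled correlation is given.

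**Figure D5:**
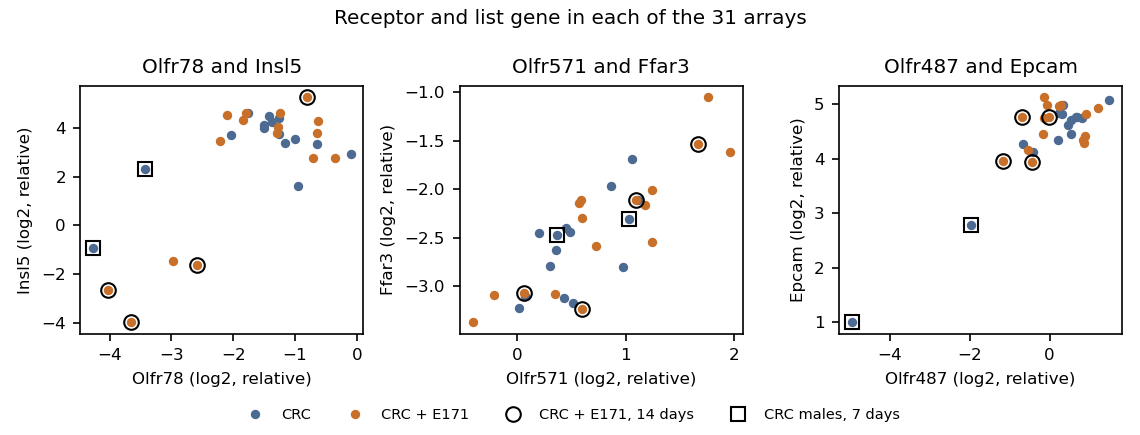
Levels (log2 signal relative to the array's 75th percentile) of Olfr78 and Insl5, of Olfr571 and Ffar3, and of Olfr487 and Epcam, each point being 1 of 31 arrays, coloured by group, with rings for CRC + E171 at 14 days and squares for the CRC males at 7 days. The panels of Olfr78 and Olfr487 show a few arrays far from the rest, while Olfr571 and Ffar3 varied together over the whole range.

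Relations were computed between 5 members (Olfr78, Olfr558, Olfr544, Olfr571 and Olfr487) and 33 genes of 4 lists (enteroendocrine, short-chain fatty acid, smooth muscle and colon epithelium) and 3 measures of the array, 180 in all. After adjustment 7 pairs passed for both r and rho. Those of Olfr78 with Cck and Slc16a1, of Olfr487 with Pyy and of Olfr558 with Car1 include the arrays that stood apart, so no value pooled over all arrays is given for them. Olfr558 and Myh11, a smooth muscle gene, had r = 0.55 (permutation p = 0.00167, adjusted 0.0167) and rho = 0.63 (permutation p = 0.00025, adjusted 0.0225), with r at 0.69 without the 2 arrays farthest from the median of Olfr558 and 0.60 after removal of the group means, but -0.06, 0.77 and 0.81 within the scan days, so it did not hold within the first. The brightest member had the closest partner without such a split. Olfr571 and Ffar3, a receptor for short-chain fatty acids, had Pearson's r = 0.82 (permutation p = 1e-05, adjusted 0.00045) and Spearman's rho = 0.75 (permutation p = 1e-05, adjusted 0.0018) over the 31 arrays, where 1e-05 is the smallest p that the permutations can give. Without the 2 arrays farthest from the median of Olfr571 r was 0.76. It was 0.87 after removal of the group means and 0.79, 0.93 and 0.94 within the 3 scan days (12, 12 and 7 arrays). Olfr571 also varied with Des, a smooth muscle gene (r = 0.54, permutation p = 0.0021, adjusted 0.0177, and rho = 0.55, permutation p = 0.00166, adjusted 0.0460), with r at 0.50 without the 2 arrays, 0.68 after removal of the group means and 0.63, 0.23 and 0.56 within the scan days. Against the log2 signal at the 75th percentile Olfr571 had r = -0.39 (permutation p = 0.0277, adjusted 0.106) and rho = -0.40 (permutation p = 0.0242, adjusted 0.198). Against the median of the negative control spots it had r = 0.35 (permutation p = 0.0546, adjusted 0.172), or 0.51 after removal of the group means. For Olfr544 r against the percentile was -0.53 (permutation p = 0.00188, adjusted 0.0170). The part of these array measures in the relation of Olfr571 and Ffar3 was not tested. Olfr487 and Epcam shared their lowest arrays, the CRC males of 7 days, at -4.95 and -1.98 for Olfr487 and 0.99 and 2.78 for Epcam, and Epcam was between 3.93 and 5.13 on the other 29.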

How the data were processed

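RNA of the distal colon was hybridised to 31 one-colour Agilent arrays, 1 per mouse by the labels. The authors deposited scanner files with spot intensity, background-subtracted and detrended by Agilent Feature Extraction 10.7.3.1 and not normalised between arrays. They also deposited log2 values, filtered on missing values and low expression and imputed with a nearest-neighbour module of GenePattern per their methods, with a normalisation not given in the sources used here, which hold 86 of the 242 probes, among them 83 of the 89 members, and served as an alternative. Here the processed signal was divided by the array's 75th percentile and taken to log2, without spots flagged as outliers. R 4.3.3 with limma 3.58.1 fitted the 8 groups, with Benjamini-Hochberg adjustment over 42790 probes, and a linear fold change of 1.5 with p under 0.05 was the rule, where the authors' methods write a log2 fold change of 1.5. The script was tested on simulated data. All 235 gene names matched RefSeq names (GRCm38.p6), whose receptor families up to 42 were taken as class I. Sequences and mm9 coordinates are those of the array files. The members and lists were chosen with earlier results of these data known. Named were Olfr78, Olfr558 and Olfr544, the 8 brightest members, per day the 3 largest rises and falls with p under 0.05, and the 3 smallest p across days in each treatment. By the correlation of deviations between arrays of the same sex and number (-0.152 to 0.449), all 3 pairs were above 0.1 at 21 days, and at 2, 7 and 14 days not every pair was. Alternatives were other scalings, filters, blocks, weights and left-out arrays. The number of arrays limits precision. A gene of the olfactory transduction list is not reported here.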

Additional observations from a re-analysis of the deposited data

Results flagged for a closer look

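Of 49 groups of arrays checked for the named members, 1 held a value far from the others. Olfr642 was at -7.97 in CRC + E171 at 7 days male 2, while the other 3 arrays of the group lay between -6.35 and -6.19, and 1 array of this group was well above background for it. The gap to the nearest array was 0.905 of the group's range, above Dixon's critical value. Chance alone gives such a value in about 1 of 20 groups. Without this array the log2 fold change of Olfr642 at 7 days fell by 0.85 and did not pass.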

How the results depend on the processing

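For 15 pairs of named member and day, those of Olfr689 and Olfr691 left aside because both were tested only through the group where they are high, 383 alternatives were run: 304 kept the direction and the side of the threshold, 71 kept the direction but no longer passed, 6 passed only then and 2 reversed. The 2 were Olfr1349 at 7 days without scaling (-0.028, where the median of all probes was itself -0.57) and Olfr487 at 7 days without both CRC males (-0.30). The latter alternative was chosen after seeing the data. Counts of members past both thresholds moved as follows, those without the filter being over all 242 probes. The share of all probes moved with the settings too and is not given here, so these counts are a description. At 2 days, from 6 to 3 with the authors' values, 12 without the filter, 3 with 60% of all arrays, 20 with the replicate block, 3 with the scan day block, 3 at a log2 fold change of 1.5 and 2 without slide 8, and leaving out 1 array gave 2 to 19. At 7 days, from 3 to 13 without scaling, 5 without the filter, 8 with array weights and 1 at a log2 fold change of 1.5, with 2 to 7 for left-out arrays. At 14 days, from 24 to 13 with 60% of all arrays, 39 with the compared groups alone, 11 at a log2 fold change of 1.5, 12 without slide 4, 12 without slide 8 and 11 without both CRC + E171 females, with 15 to 24 for left-out arrays. At 21 days, from 4 to 8 with quantile normalisation, 8 without scaling, 16 without the filter, 7 with the replicate block, 7 with the scan day block, 8 with array weights and 2 at a log2 fold change of 1.5, with 2 to 9 for left-out arrays. The count for the mean of 2 and 14 days was 10, and 5 without CRC at 14 days male 2, also chosen after seeing the data. The count for the difference between days was 17, and 13 to 27 for left-out arrays. Leaving out slides and both CRC + E171 females was also chosen after seeing the data, and the cause of these moves was not tested. The replicate block shifted the count at 14 days from 24 to 33 (10 up and 23 down) and the count at 7 days from 3 to 4. Most members lie near the lowest measurable signal, which limits the size of any difference that can be read.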
